A study of Mus musculus with 6 samples.

Results

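miR-221 and miR-222 are neighbouring microRNAs on the mouse X chromosome, and they were followed here in 3T3-L1 cells, a mouse embryonic fibroblast line that becomes adipocytes when given adipogenic hormones. Every mouse miRNA on the array named miR-221 or miR-222 was taken, from either arm of the hairpin, which gave 4 miRNAs of 1247: miR-221-3p, miR-221-5p, miR-222-3p and miR-222-5p. The question of the series was which miRNAs differ in adipocytes when interleukin-6 (IL-6), an inflammatory cytokine, is present. The 4 control arrays held untreated cells and the 2 IL-6 arrays held cells given recombinant IL-6 at 1 ng/ml from the start of differentiation. IL-6 was renewed with the medium every 24 h. All cells of both groups were grown past confluence for 48 h, then received isobutyl-methylxanthine, dexamethasone, insulin and rosiglitazone for 3 days, insulin alone for 3 days and serum medium for 2 days, and were taken on day 8. No array held undifferentiated cells, so a fall of these miRNAs from preadipocyte to adipocyte was not measured. Separate cultures are not stated in the labels for arrays of the same group. The p-values therefore rest only on the variation seen among these samples, possibly technical, and the number of arrays limits the precision.

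A microRNA guides Argonaute to messenger RNAs that pair with its seed, bases 2 to 8, and the usual outcome is less protein from that message. miR-221 and miR-222 are processed from one primary transcript and are best known for binding the messages of the cell-cycle inhibitors Cdkn1b and Cdkn1c and of the receptor tyrosine kinase Kit, so they are associated with cell division. In fat cell cultures they have been described as preadipocyte miRNAs whose level declines during differentiation, and in obese adipose tissue as miRNAs linked to inflammation.

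The mature sequences show why both miRNAs are treated as one family, and they are printed with the seed in capitals (RefSeq, GRCm38.p6). A search of 1738 mature mouse miRNAs in the same source found 3 with this seed, and the third, miR-1928, was also on the array.
mmu-miR-221-3p: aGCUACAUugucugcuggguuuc
mmu-miR-222-3p: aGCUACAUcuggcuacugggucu
mmu-miR-1928: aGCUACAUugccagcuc
The first 8 bases of miR-221-3p and miR-222-3p were identical. The rest of the 23 bases diverged, apart from short matches such as cugggu nearer the 3′ end.

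The hairpins are printed with the 3p arm in capitals, because the results turn on this arm and the other arm was dim or undetected.
Mir221: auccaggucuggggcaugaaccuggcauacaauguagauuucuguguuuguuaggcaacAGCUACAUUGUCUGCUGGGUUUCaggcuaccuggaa
Mir222: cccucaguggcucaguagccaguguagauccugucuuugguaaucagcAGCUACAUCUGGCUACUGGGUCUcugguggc
Both lie on the minus strand, Mir221 at chrX:19146294-19146388 and Mir222 at chrX:19146893-19146971 (GRCm38.p6), with 504 bases between them. No other annotated gene overlapped either hairpin. The nearest annotated genes were the pseudogene Gm5383, 203059 bases away on the lower-coordinate side, and the long noncoding RNA Gm14636, 9499 bases away on the other side. The mature miR-221-3p covers chrX:19146307-19146329 and the mature miR-222-3p chrX:19146901-19146923.

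The array read each miRNA with DNA probes that pair with its 3′ end, and these are printed because their lengths differed between the 2 family members. Capitals mark the bases that pair with the seed of a 3p miRNA. The source held no mature sequence of miR-222-5p, so its probe is printed without a seed mark.
miR-221-3p, 19-base probe: gaaacccagcagacaATGT
miR-221-3p, 20-base probe: gaaacccagcagacaATGTA
miR-222-3p, 13-base probe: acccagtagccag
miR-222-3p, 14-base probe: acccagtagccagA
miR-222-5p, 18-base probe: aggatctacactggctac
The miR-221-3p probes paired with mature bases 5 to 23 and 4 to 23. The miR-222-3p probes paired with bases 9 to 21 and 8 to 21, which leaves the last 2 bases of the RefSeq sequence unpaired. The longest run of bases that a 3p probe of one partner could pair with in the other partner was 6. This run was cugggu, nearer the 3′ end than the shared first bases, and most of each probe lay outside it. The scanner files list genome positions for these probes. For all 9 probes of the 4 miRNAs the listed position equalled the true sequence position only after it was mirrored within the hairpin, so that the file position of the 20-base miR-221-3p probe, chrX:19146356-19146375, falls partly on the 5p arm at chrX:19146344-19146369. Positions given here come from the sequence match.

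All 6 arrays sat on 1 slide, the controls in slide row 1 and the IL-6 arrays in row 2, so row and group cannot be told apart, while columns 3 and 4 held 1 array of each group. Each array carried 3105 probes for the mouse miRNAs, and between 268 and 313 miRNAs were detected on an array. Intensities were scaled to a common 75th percentile, and a miRNA was tested if detected on all control or both IL-6 arrays.

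Neither 3p miRNA changed beyond the spread between arrays with IL-6. miR-221-3p measured 755, 772, 721 and 689 on the 4 control arrays in order, against 759 and 720 on the IL-6 arrays, as scaled intensity averaged over its probes. Both IL-6 values lay inside the control range, and control array 4 was lowest. On the log2 scale the level was 9.52 ± 0.07 (SD, n = 4) in controls and 9.53 ± 0.05 (SD, n = 2) with IL-6. The difference was 0.011 ± 0.068 SE (limma adjusted p = 0.961), and its 95% interval ran from -0.16 to 0.18, or from 0.898-fold to 1.13-fold. Within the slide columns that held both groups, IL-6 minus control was 0.074 in column 3 and 0.063 in column 4. Arrays measure RNA from the whole culture, so fewer cells of a type and less RNA per cell cannot be told apart.

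miR-222-3p measured 318, 306, 293 and 342 on the 4 control arrays in order, against 280 and 323 on the IL-6 arrays. IL-6 array 1 lay below all controls and IL-6 array 2 lay inside their range, so the groups overlapped. The log2 level was 8.30 ± 0.09 (SD, n = 4) in controls and 8.23 ± 0.14 (SD, n = 2) with IL-6. The difference was -0.065 ± 0.091 SE (limma adjusted p = 0.725), with a 95% interval from -0.29 to 0.16, or from 0.819-fold to 1.12-fold. Within slide columns 3 and 4 it was -0.068 and -0.084. Without IL-6 array 1 the difference was 0.037, and without control array 3 it was -0.17.

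Across all 299 tested miRNAs, 1 passed as higher and 0 as lower with IL-6 (limma, adjusted p under 0.05), which is 0.334% and 0%, with 68 (22.7%) at an unadjusted p under 0.05. The 1 that passed was miR-5117-5p, no member of the family. These counts depend on single arrays: without control array 4 there were 23 higher and 8 lower, without control array 3 0 in either direction (96 at an unadjusted p under 0.05), without IL-6 array 1 5 higher and without IL-6 array 2 4 higher. Neither 3p member passed at either level. Nor did miR-222-5p, which lay close to background and entered the test only through its detection on the IL-6 arrays. Both IL-6 values were outside those of the controls for 34.8% of tested miRNAs and for 0 of these 3. By size of the difference, 17 tested miRNAs differed less than miR-221-3p and 82 less than miR-222-3p. A difference that misses the threshold does not show that the level stayed the same, and the intervals above give the sizes that these arrays leave possible.

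**Figure D1:**
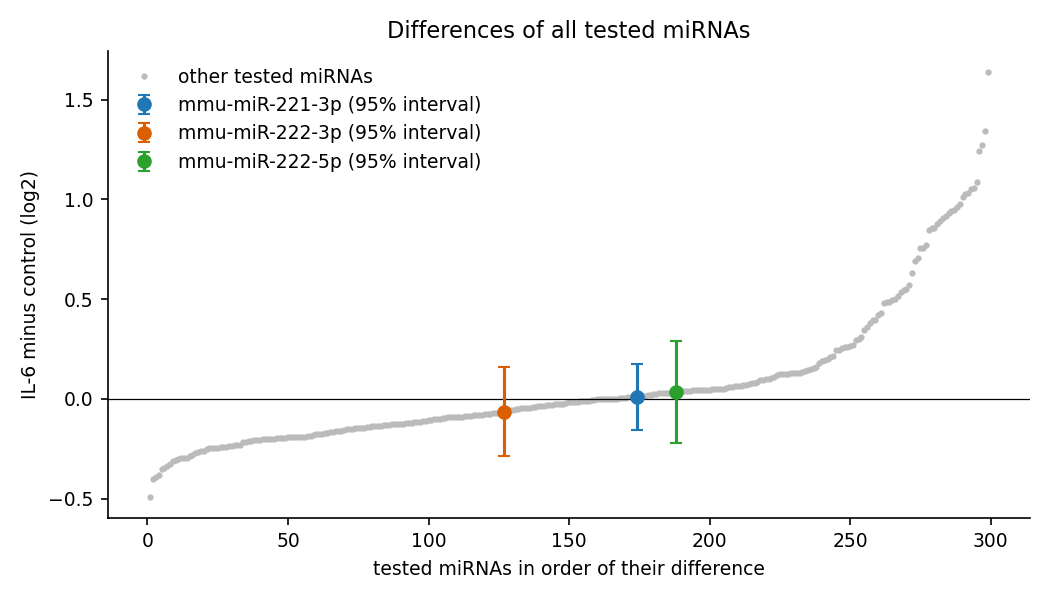
IL-6 minus control on the log2 scale for the 299 tested miRNAs, ordered by size, with each grey point 1 miRNA and the coloured points the members with their 95% intervals from limma. All 3 members sit near 0, between -0.065 and 0.033, and their intervals cross 0.

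The probes of each 3p miRNA gave like differences. The shorter probe lies within the longer one and both were read on the same arrays, so this is no independent check. For miR-221-3p the 19-base probe differed by -0.0022 and the 20-base probe by 0.020, against control SDs of 0.071 and 0.076. For miR-222-3p the 13-base probe differed by -0.063 and the 14-base probe by -0.065, against control SDs of 0.13 and 0.072. Each of these probes was printed in 20 spots per array, and every spot used was well above background on every array. The standard error over the spots of 1 array was between 0.481% and 1.30% of the probe's intensity. The coefficient of variation over the 4 control arrays was larger, at 5.04% for miR-221-3p and 6.55% for miR-222-3p, and other sources of technical spread were not measured. On the log2 scale the control SD of miR-221-3p was 0.073 and that of miR-222-3p 0.094, where the median over tested miRNAs was 0.13. Of the 299 tested miRNAs, 65 had a smaller control SD than miR-221-3p and 101 a smaller one than miR-222-3p.

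**Figure D2:**
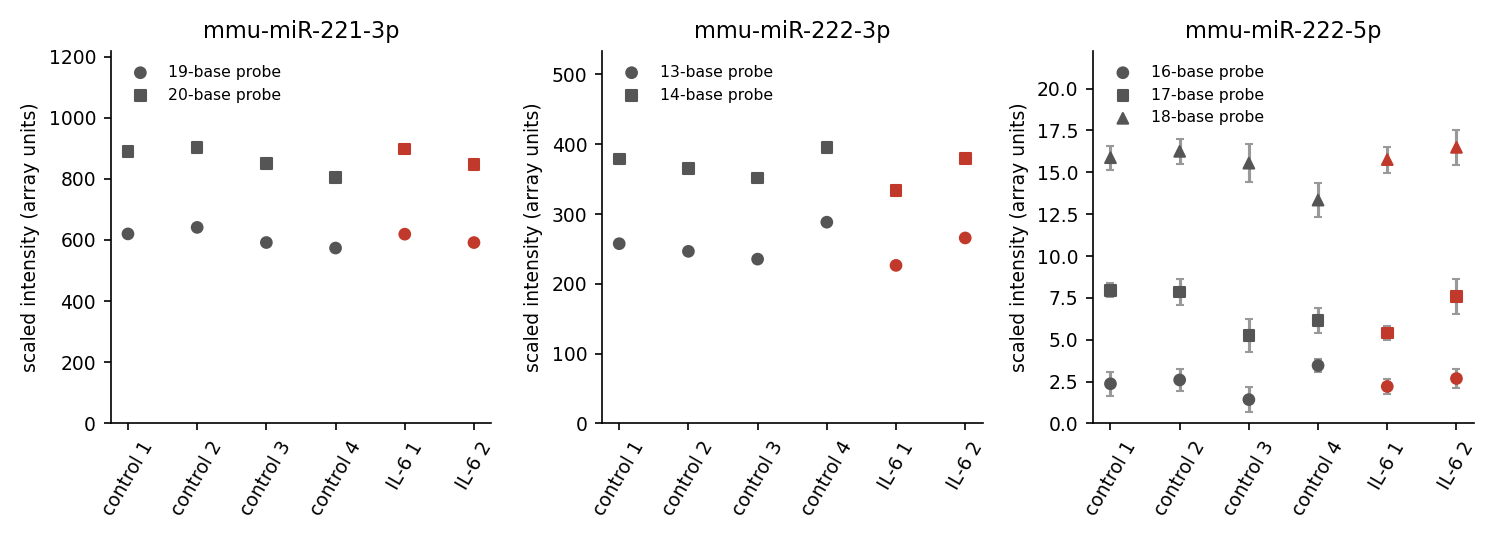
Scaled intensity of each probe on each array for miR-221-3p, miR-222-3p and miR-222-5p, in grey for control and red for IL-6 arrays, with bars for the standard error over spots and a linear axis from 0. The probes of a 3p miRNA keep the same order on all 6 arrays, and miR-222-5p lies far lower, between 1.43 and 16.5.

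The 5p arms, the strands that are usually discarded, were dim or not detected. miR-221-5p was well above background on none of the 6 arrays. The longer of its probes gave scaled intensities between 3.63 and 6.63, no spot of either probe was well above background, and the scanner software did not call it detected on any array. It entered no test, and no fold is given for it. Its sequence is printed with bases 2 to 8 in capitals, since this arm carries a seed unlike that of the 3p arm.
mmu-miR-221-5p: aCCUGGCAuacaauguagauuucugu

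miR-222-5p was detected on both IL-6 arrays and on 2 of 4 control arrays, through 1 of its 3 probes. The 18-base probe measured 15.9, 16.3, 15.5 and 13.3 on the 4 control arrays in order, against 15.8 and 16.5 on the IL-6 arrays. Control arrays 1 and 2 and both IL-6 arrays lay between 15.8 and 16.5, and control array 4 was lowest. The 16-base and 17-base probes were not detected on any array. The average over its probes thus includes 2 that were below the detection limit throughout, and the fitted values are given with that limit. The log2 level was 3.03 ± 0.13 (SD, n = 4) in controls and 3.06 ± 0.14 (SD, n = 2) with IL-6, a difference of 0.033 ± 0.10 SE (limma adjusted p = 0.901; 95% interval -0.22 to 0.29). The groups overlapped. Within slide columns 3 and 4 the difference was 0.072 and 0.22. It passed the detection filter through the IL-6 arrays, and the scanner software's own call had it detected on all 6.

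miR-1928, the other carrier of the shared seed, was not well above background on any array, with scaled intensities between -1.22 and -0.696. The search for this seed covered the 1017 of 1247 miRNAs on the array that had a mature sequence in the source.

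Although they come from one transcript, the 2 partners did not follow each other closely from array to array. On control array 4 miR-221-3p was at its lowest, 0.094 below its mean over the 6 arrays on the log2 scale, while miR-222-3p was at its highest, 0.14 above its mean. On IL-6 array 1 miR-221-3p was 0.045 above and miR-222-3p 0.14 below. The log2 ratio of miR-221-3p to miR-222-3p, set to 0 at the control mean, was 0.024, 0.11, 0.074 and -0.21 on the 4 control arrays in order, against 0.22 and -0.065 on the IL-6 arrays. The IL-6 arrays thus lay above and inside the control range. The ratio differed by 0.075 between the groups, less than its control SD of 0.15. It was 0.14 higher with IL-6 within column 3 and 0.15 higher within column 4. No test was made of this ratio.

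The miRNAs whose profile over the 6 arrays was most like each partner were other ones. Likeness was taken as the root mean square difference of log2 values after each miRNA was centred on its own mean, which favours miRNAs of like spread. For miR-221-3p the 3 closest of 298 were miR-25-3p (0.023), miR-93-5p (0.030) and miR-214-5p (0.031), while miR-222-3p came at place 134 (0.14), near the median of 0.15. For miR-222-3p the 3 closest were miR-5126 (0.037), miR-149-3p (0.038) and miR-3081-5p (0.038), and miR-221-3p came at place 114. None of these 6 miRNAs passed the test of IL-6 against control (limma adjusted p between 0.639 and 0.901).

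Probe length was set beside this pattern. The mean probe length was 19.5 bases for miR-221-3p and 13.5 for miR-222-3p, and the 3 miRNAs closest to miR-222-3p had 10.5, 10.5 and 12.5. The 3 closest to miR-221-3p had 17.5, 15.5 and 15.5, shorter than its own. When the tested miRNAs were split into 4 classes by mean probe length, the 96 with the shortest probes, 9.5 to 13.5 bases, had a median deviation of 0.14 on control array 4 and -0.089 on IL-6 array 1. The 75 with the longest, 18.5 to 22.5 bases, had -0.11 and 0.036 on the same arrays. miR-222-3p belonged to the first of these classes and miR-221-3p to the last, and each deviated the same way as its class on both arrays. On control array 3 miR-221-3p (-0.029) and its class (0.071) went opposite ways. Shorter probes were also richer in G and C, with a mean of 70.9% in the shortest class and 41.6% in the longest. Length and base composition therefore cannot be told apart, and the cause of the pattern was not tested.

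**Figure D3:**
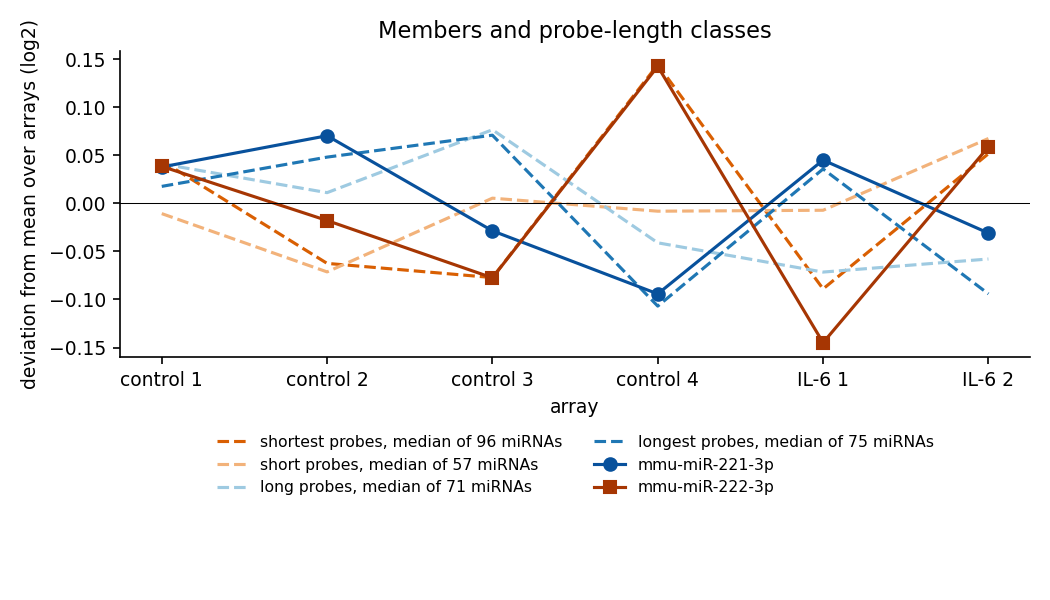
Deviation of log2 level from the mean over the 6 arrays, for miR-221-3p and miR-222-3p (solid) and the medians of 4 probe-length classes of tested miRNAs (dashed); lines only join the points of a series. On control array 4 miR-222-3p (0.14) and the shortest class (0.14) are high, and miR-221-3p (-0.094) and the longest class (-0.11) are low.

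Subtracting on each array the median deviation of the miRNA's own length class, a step chosen after the data were seen and with the members counted in their classes, brought the partners closer. The control SD of miR-222-3p became 0.024, from 0.094, and that of miR-221-3p 0.059, from 0.073. That of miR-222-5p went the other way, to 0.15 from 0.13, and its difference moved from 0.033 to 0.12 (limma adjusted p = 0.543). The control SD of the log2 ratio of the 3p partners became 0.057, from 0.15, and miR-222-3p moved from place 134 to place 15 among the 298 miRNAs closest to miR-221-3p. In the other direction miR-221-3p moved from place 114 to place 29 among those closest to miR-222-3p. The median root mean square difference of miR-221-3p from all others also fell, to 0.12 from 0.15. The ratio relative to the control mean was then 0.046, -0.0021, -0.079 and 0.035 on the 4 control arrays in order, against 0.085 and 0.076 on the IL-6 arrays, so that both IL-6 arrays lay above all controls. Without this step 34.8% of single tested miRNAs had both IL-6 values outside the controls. How often ratios of other pairs do so was not counted. The group difference of the ratio, 0.081, was not tested and was close to the 0.075 without this step. The IL-6 differences were 0.047 ± 0.056 SE for miR-221-3p (limma adjusted p = 0.619) and -0.034 ± 0.047 SE for miR-222-3p (limma adjusted p = 0.664), and neither passed. The 95% interval of miR-222-3p narrowed to -0.15 to 0.079.

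Lists of miRNAs of the same biology are described by counts, which include the members where they belong to a list. Over all tested miRNAs 1 of 299 (0.334%) passed, so 0 calls in a list is near that share and sets no list apart. Of 25 miRNAs listed (24 on the array) as restraining fat cell formation, the list that both 3p members belong to, 19 were tested, 0 passed in either direction, 7 lay above 0 and 12 below, and the median difference was -0.047. The median over all 299 tested miRNAs was -0.016, with 134 above 0 and 165 at or below 0. Brightest in the list were let-7a-5p (-0.031), let-7f-5p (-0.047) and let-7c-5p (0.013), of a family known for restraining Hmga2 and with it clonal expansion, and miR-125b-5p (-0.10). For 6 of the 19 the groups did not overlap, with IL-6 higher for 1 and lower for 5. For 34.8% of all 299 tested miRNAs they did not overlap, with IL-6 higher for 39 and lower for 65.

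Of 22 miRNAs listed as favouring fat cell formation, 19 were tested and 0 passed, with 3 above 0, 16 below and a median of -0.11. Its brightest members were miR-21a-5p (-0.15), miR-103-3p (-0.11), miR-26a-5p (0.043) and miR-107-3p (-0.14), of which miR-103-3p and miR-107-3p form a family tied to insulin sensitivity. Markers of the cell state can be set beside this. The summed scaled intensity of 6 adipocyte miRNAs ran from 5018 to 5746 in controls and from 4789 to 4929 with IL-6, without overlap. Among all 299 tested miRNAs, both IL-6 values lay below all controls for 65 and above them for 39. Of the 6, miR-143-3p (-0.39), miR-378a-3p (-0.19) and miR-30a-5p (-0.20) were lower on each IL-6 array than on any control. The groups overlapped for miR-103-3p, miR-107-3p and miR-148a-3p (-0.026). The sum over 6 preadipocyte and fibroblast miRNAs, both 3p members among them, ran from 6437 to 7663 in controls and from 6714 to 7269 with IL-6, with overlap. Of these 6, miR-31-5p (-0.30) was lower on each IL-6 array than on any control, and the rest overlapped. All 12 were detected on every array. The part of these sums in the members' values was not tested. None of the 3 muscle, 4 blood, 1 endothelial, 2 neural and 1 liver defining markers was detected on any array. In a longer neural and liver list of 4, miR-128-3p, best known from brain, was tested and differed by 0.10 (limma adjusted p = 0.574). Of 6 epithelial markers 1, miR-205-5p, was detected, and it differed by 0.093 (limma adjusted p = 0.550).

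The list closest to the known targets of the pair holds 14 miRNAs reported to bind messages of the Cip/Kip cell-cycle inhibitors. Of these 12 were tested and 0 passed, with 6 above and 6 below 0 and a median of 0.0053, or 0.014 without the members. Its other bright members were miR-24-3p (-0.15 ± 0.073 SE, limma adjusted p = 0.267), lower on each IL-6 array than on any control, and miR-152-3p (-6.7e-05). In the list of 11 miRNAs tied to inflammation of fat tissue, 7 were tested and 0 passed. Its median was -0.12, or -0.15 without miR-221-3p and miR-222-3p. Of the 7, 6 lay below 0, and miR-221-3p was the only one above 0 in this processing. miR-146b-5p differed by -0.014, and miR-21a-5p by -0.15. The largest difference in the list was that of miR-155-5p (-0.35 ± 0.084 SE, limma adjusted p = 0.0859). For 3 of the 7, miR-155-5p and miR-21a-5p among them, IL-6 was lower without overlap. The same held for 65 of all 299 tested miRNAs.

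The chromosome X set took every miRNA with any position on chromosome X in the scanner files. miRNAs that also have positions elsewhere were not left out, and these positions were not checked against sequence beyond the members. Of its 144 miRNAs 42 were tested and 0 passed, with 18 above 0, 24 below and a median of -0.052, or -0.058 without the members. The members lay inside this set's range of -0.33 to 1.01. miR-322-5p, of another X-linked cluster, differed by -0.058, and miR-5097 by -0.33 ± 0.063 SE (limma adjusted p = 0.0795). Taken by slide column, 3 then 4, the median difference was -0.058 and -0.013 for the chromosome X set, 0.047 and 0.039 for the list that restrains fat cell formation, and -0.11 and -0.053 for the one that favours it.

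**Figure D4:**
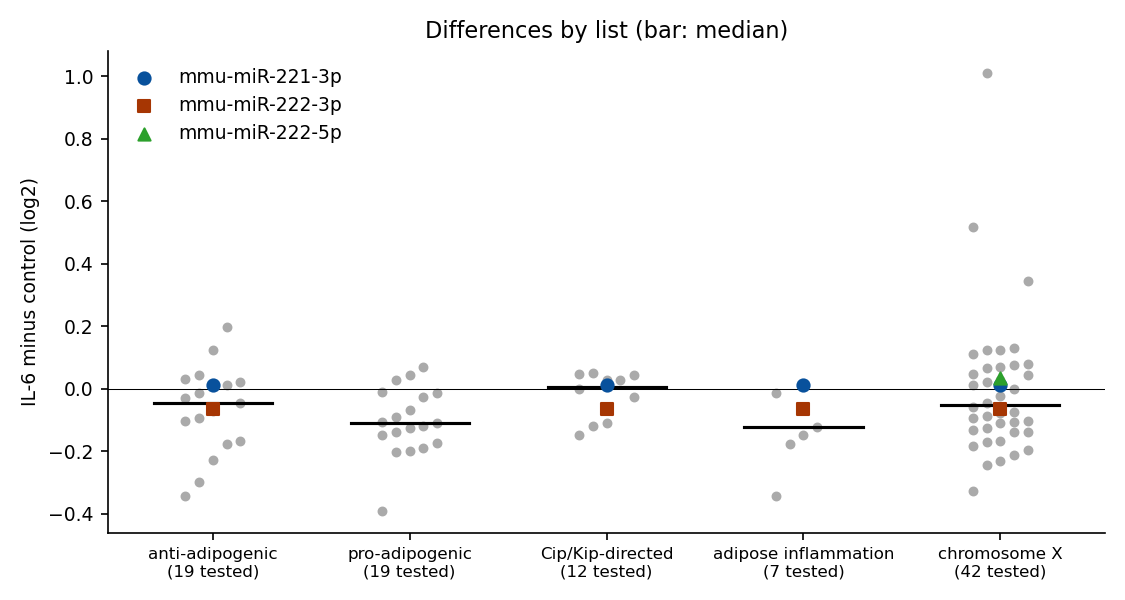
IL-6 minus control on the log2 scale for the tested miRNAs of 5 lists, each grey point 1 miRNA, the bar the median of the list and coloured points the members. miR-221-3p (0.011) and miR-222-3p (-0.065) lie between the ends of the anti-adipogenic, Cip/Kip and chromosome X lists, and miR-221-3p is the highest of the 7 in the adipose inflammation list.

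The sign of these small differences changed with the scaling. The 75th percentile of intensity used for scaling was 347, 396, 248 and 343 on the 4 control arrays in order, against 440 and 369 on the IL-6 arrays. Without scaling the median over all tested miRNAs moved by 0.28. Without it miR-221-3p differed by 0.30 and miR-222-3p by 0.23, close to that shift, and neither passed (limma adjusted p = 0.592 and 0.685). Scaling over all mouse probes moved the median by -0.11, and the 3p members then differed by -0.10 and -0.18. Over 23 alternatives the adjusted p ran from 0.438 to 0.963 for miR-221-3p and from 0.167 to 0.911 for miR-222-3p (limma).

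**Figure D5:**
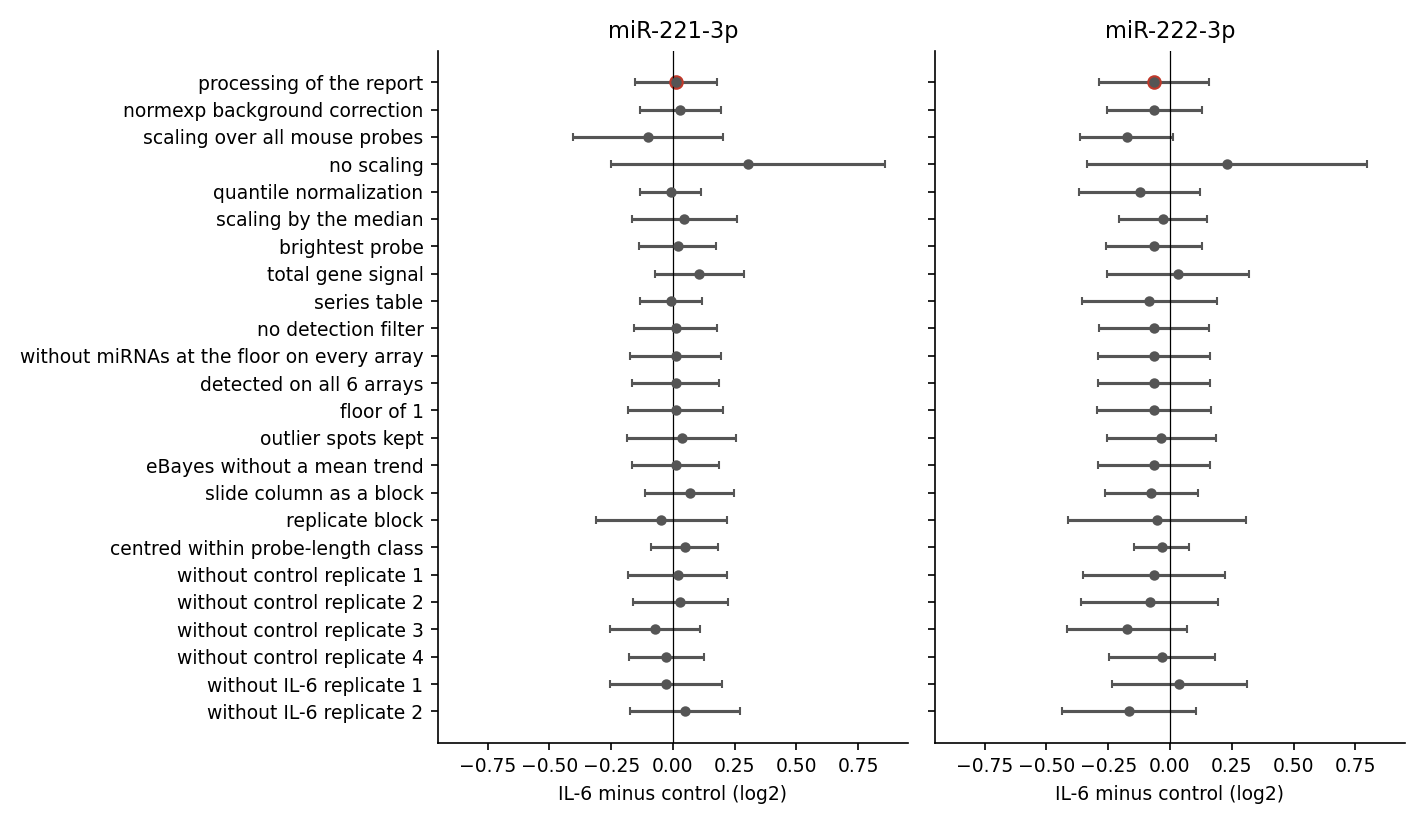
IL-6 minus control on the log2 scale with limma's 95% interval for miR-221-3p and miR-222-3p, under the processing of the report (red, top) and 23 alternatives. Every interval crosses 0, and the widest are those without scaling, up to 0.86 for miR-221-3p and 0.80 for miR-222-3p.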

How the data were processed

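Total RNA (100 ng per sample, RNA integrity number 9.5 to 10.0 per the labels' protocols) was labelled with Cy3 and hybridised to 1-colour Agilent miRNA arrays, 4 control and 2 IL-6, grouped by sample title. Per the submitters' processing notes, Agilent Feature Extraction 10.10.1.1 was used. The deposited intensity values had a fitted background subtracted, per the file headers, and can be negative. The deposited spot flags, another kind of column, mark outliers and spots well above background. The deposited series table equalled the scanner's total probe signal (largest difference 0), on a linear scale and not centred, with column medians from 0.0727 to 0.117.

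Outlier spots were left out and spots averaged per probe. A probe was called detected if the share of its spots flagged as well above background reached 0.5. Arrays were scaled by the 75th percentile of the 502 probes detected on all arrays, probes of a miRNA averaged, values below 6.25 set to that floor, and log2 taken. limma 3.58.1 (R 4.3.3, trended eBayes) was fitted to all 299 tested miRNAs, and p-values were adjusted by Benjamini-Hochberg and called under 0.05. The limma fit was tested on simulated data, with values drawn independently for each miRNA and without shifts shared by an array.

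Named miRNAs were the members, others sharing the seed, the 3 nearest profiles to each 3p member, and in each list the called and the 4 brightest tested miRNAs. Members and lists were chosen with earlier results of these data known. Alternatives in background, scaling, summary, filters, floor, blocks and left-out arrays were run, and 2 were added after seeing the data: leaving out miRNAs at the floor on every array, and centring within probe-length class.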

Additional observations from a re-analysis of the deposited data

How the results depend on the processing

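No tested member passed the threshold under any alternative run, but the signs of their small differences were not stable, and the cause was not tested. miR-221-3p turned to -0.10 with scaling over all mouse probes, -0.0084 with quantile normalization, -0.0088 from the series table and -0.047 with the replicate block, and ran from -0.074 to 0.049 with 1 array left out. miR-222-3p turned to 0.23 without scaling and 0.032 with the total gene signal, and ran from -0.17 to 0.037 with 1 array left out. miR-222-5p turned to -0.0052 with normexp, -0.079 with all mouse probes, -0.048 with quantile normalization, -0.0032 with the total gene signal and -0.081 with the replicate block, and ran from -0.090 to 0.13 with 1 array left out. It has no value with the brightest probe, whose intensities all lay under that alternative's own floor of 17.4, and it was not detected on all 6 arrays, so that alternative does not hold it. With an IL-6 array left out, the lone one is assumed to vary like the other arrays.

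Higher calls, 1 in the report, numbered 2 with all mouse probes, 34 without scaling, 3 with the median, 2 with the brightest probe, 3 with the total gene signal, 2 without a detection filter, 3 without miRNAs at the floor, 7 with a floor of 1 and 8 centred within probe-length class, which also gave 2 lower. limma made 0 higher calls with normexp (30 at an unadjusted p under 0.05), quantile normalization (83), the series table (79), detection on all 6 arrays (56), the slide column block (50) and the replicate block (50). With 1 array left out there were 0 to 23 higher and 0 to 8 lower. Same-numbered arrays had correlations of deviations of 0.058 and -0.34. With 2 IL-6 arrays these deviations mirror each other, so the check cannot settle a pairing, and the labels give only a number.

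List medians followed the scaling. With all mouse probes, no scaling and the total gene signal they were -0.16, 0.25 and 0.049 for the anti-adipogenic list, -0.22, 0.18 and -0.014 for the pro-adipogenic list, -0.11, 0.30 and 0.10 for the Cip/Kip list, -0.23, 0.17 and -0.026 for the inflammation list, and -0.16, 0.24 and 0.035 for chromosome X, beside shifts of all tested miRNAs of -0.11, 0.28 and 0.086. The anti-adipogenic median was 0.047 with the slide column block, and the inflammation median -0.035 centred within probe-length class. With 1 array left out these medians ran from -0.13 to 0.0050, -0.16 to -0.062, -0.076 to 0.023, -0.17 to -0.10 and -0.12 to -0.019 in the same order. Dim signal limits miR-222-5p and miR-221-5p.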
